A study of Mus musculus with 8 samples.

Results

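Kruppel-like factors are transcription factors with zinc fingers, and 9 of them, *Klf2*, *Klf3*, *Klf4*, *Klf6*, *Klf7*, *Klf9*, *Klf10*, *Klf13* and *Klf15*, were followed in lung RNA from 8 mice. They were taken as a list of symbols and found in the count tables by their Ensembl gene identifiers. These are 9 of the 55416 genes listed, and all 9 were among the 18560 genes that passed the filter on low counts. Their zinc fingers bind GC-rich and CACCC sequences, while the remainder of each protein, which differs between members, recruits activating or repressing cofactors. In the lung, *Klf2* and *Klf4* are best known from the endothelium, where flowing blood keeps them expressed through the kinases MEK5 and ERK5 and the MEF2 factors. Other members are known as early genes of stress, cytokine and glucocorticoid responses.

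The mice are labelled C57BL/6 (C57BL/6J in the study's methods) and, per the same methods, were females 6 to 8 weeks old. The 3 control mice received the solvent DMSO in a tail vein and then saline in the peritoneum. The 3 LPS mice received lipopolysaccharide, the endotoxin of Gram-negative bacteria, at 35 mg/kg. The 2 dual-treated mice (LPS+YW3-56) received YW3-56 at 10 mg/kg in DMSO, 0.5 h before the same dose of LPS. YW3-56 is an inhibitor of protein arginine deiminases, the enzymes that citrullinate histones when neutrophils release their chromatin. The methods name DMSO for the control and the dual-treated mice and not for the LPS mice, which per the abstract received LPS only. On that description the solvent cannot be told apart from YW3-56 in dual treatment against LPS or from LPS in LPS against control. Dual-treated and control mice both received it. Lungs were taken 24 h after LPS, and the total count per library was between 19061949 and 20908608. With these totals the lowest raw count of any member in any library was 767, for *Klf10* in LPS mouse 1. The comparisons address how endotoxin changes the lung transcriptome and how far prior PAD inhibition alters that response.

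The lung identity of the libraries was checked with *Sftpc*, *Ager*, *Scgb1a1* and *Pecam1*. Their summed level was between 33255 CPM (the count per unit of library size, TMM-normalized) in dual-treated mouse 2 and 84565 CPM in LPS mouse 1, and none of the 4 was at 0 in any library. LPS mice 6 and 7 stood apart from all other libraries in genes of squamous epithelium and of skeletal muscle. The 6 squamous markers, with *Krt4* highest in LPS mouse 6, *Krt13* in LPS mouse 7 and *Sprr1a* in the other 6 mice, summed to 665 CPM in LPS mouse 6 and 1949 CPM in LPS mouse 7, against 1.13 CPM in LPS mouse 1 and between 3.09 and 6.12 CPM in the control and dual-treated mice. The 5 skeletal muscle markers, with *Acta1* highest in LPS mice 6 and 7, summed to 362 and 995 CPM in these mice and to between 4.13 and 18 CPM in the other 6. Results for the Klf genes are therefore also given with both of these LPS mice left out. LPS mouse 1 is then the only mouse of its group, and the other groups give the spread.

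Most of the 9 Klf genes were higher in LPS lungs than in control lungs. *Klf2*, *Klf6*, *Klf7*, *Klf9*, *Klf13* and *Klf15* rose, *Klf10* fell, and *Klf3* and *Klf4* did not pass the test. A gene was called when the quasi-likelihood test of edgeR gave it a Benjamini-Hochberg adjusted p under 0.05 over all tested genes. The 6 of 9 members that rose stand beside 32.6% of all tested genes, and the 1 of 9 that fell beside 33.9%. The list of 9 was chosen with earlier results of these data known, so its counts beside these shares are description only. Of the 5 tested Klf genes outside the list, 2 rose and 3 fell with LPS, with a median log2 fold change of -0.87. In 7 of the 9 members the LPS and control mice did not overlap, 6 being higher and 1 lower in LPS, while 72% of all genes had no overlap in either direction. The median log2 fold change of the members was 0.44, against -0.01 over all genes. Under the study's criterion, a fold change over 2 with an unadjusted p under 0.05, 4 members were called (*Klf2*, *Klf6*, *Klf9* and *Klf13*), beside 40.1% of all genes.

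In dual-treated lungs *Klf2*, *Klf6*, *Klf9* and *Klf13* lay nearer to the control level than in LPS lungs. *Klf3*, *Klf7* and *Klf15* lay about as far below control (log2 fold changes of -0.21, -0.48 and -0.37) as above it with LPS (0.26, 0.44 and 0.40), and *Klf10* was below control in both. Against control, no member was called higher and only *Klf10* was called lower by edgeR, beside 9.13% and 7.02% of all genes called higher and lower. DESeq2 called 1 higher (*Klf2*) and 1 lower after adjustment, beside 10.3% and 10.4% of all genes. At an unadjusted p under 0.05 edgeR gave 2 members higher and 3 lower. For an unadjusted p alone no share of all genes is given here. The groups did not overlap in 6 of 9 members, 2 higher and 4 lower in the dual-treated mice, beside 52.2% of all genes. The median of the members was -0.21, against 0.00 over all genes. The study's criterion called 0 members here with edgeR, beside 10.5% of all genes.

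Against LPS alone, 7 of 9 members fell in dual-treated lungs, beside 27.4% of all genes. These were *Klf2*, *Klf3*, *Klf6*, *Klf7*, *Klf9*, *Klf13* and *Klf15*. By edgeR 0 members rose, beside 31.7% of all genes, while 1 member (*Klf10*) was higher at an unadjusted p under 0.05, and DESeq2 gave 0 higher at either threshold. In the same 7 genes every dual-treated mouse was below every LPS mouse, where 70.8% of all genes had no overlap in either direction. The median of the members was -0.78, against 0.06 over all genes. By the study's criterion 2 members, *Klf6* and *Klf9*, were called, beside 35.3% of all genes. This comparison uses the same LPS mice as that of LPS with control, so their results are not independent. Here too the counts describe a list chosen with earlier results known. Of the 5 tested Klf genes outside it, 1 rose and 2 fell, with a median of 0.41.

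Scaling bears on these directions. The TMM factors were 1.06 to 1.08 in control, 0.81 to 0.93 in LPS and 1.09 to 1.11 in dual-treated libraries. With library size as the only scaling, the median of all genes moved by -0.284 for LPS against control and by 0.323 for dual treatment against LPS, on the log2 scale. The share of called genes that were higher then went from 49% to 35.6% in the former comparison and from 53.6% to 71% in the latter. Of the members, 4 rose and 1 fell with LPS under that scaling, beside 23.4% and 42.2% of all genes, and 6 fell and 1 rose with dual treatment against LPS, beside 17.4% and 42.5%. *Klf2*, *Klf6*, *Klf9* and *Klf13* rose with LPS under every scaling tried. With LPS mice 6 and 7 left out, only LPS mouse 1 stands for its group. The median log2 fold change of the members was then 0.81 with LPS and -0.86 with dual treatment against LPS.

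**Figure D1:**
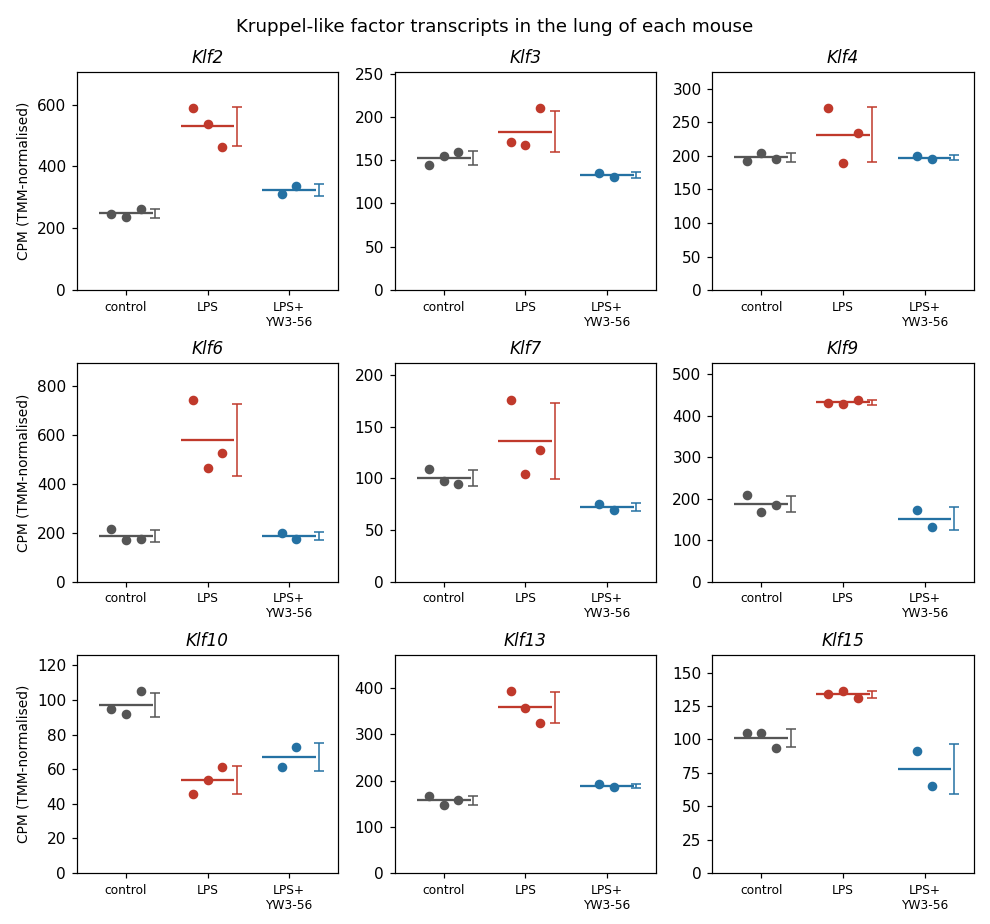
TMM-normalized CPM (vertical axes, from 0) of each of the 9 Klf genes in each mouse by group (horizontal axes); points are mice, horizontal lines are group means and the bars beside them are 1 SD (n = 3 control, 3 LPS and 2 LPS+YW3-56). The LPS mice lay above all control and all dual-treated mice for *Klf2*, *Klf3*, *Klf6*, *Klf9*, *Klf13* and *Klf15*, and for *Klf10* the LPS and the dual-treated mice lay below the control mice; with library size as the only scaling, *Klf3* and *Klf4* had a log2 fold change below 0 with LPS.

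Levels can be compared between genes only per length, here as CPM per kb of annotated exons. In control lungs *Klf2* was the most abundant member with 116 ± 6.54 CPM per kb (SD, n = 3), followed by *Klf4* with 62.8 ± 2.2 and *Klf6* with 41.5 ± 5.37. *Klf10*, *Klf9* and *Klf13* came next, at means of 23.1, 22.8 and 20.9 CPM per kb, and each overlapped its neighbour in this order. *Klf15* (13.7) and *Klf7* (11.8) overlapped too, and *Klf3* was lowest with 10.2 ± 0.509 CPM per kb. In LPS lungs *Klf6* moved above *Klf4*. The LPS means were 248 ± 29.1 CPM per kb for *Klf2*, 129 ± 32.8 for *Klf6* and 73.5 ± 13 for *Klf4*, and these 3 genes did not overlap. *Klf10* went from the 4th place in control lungs to the 8th of 9 in LPS lungs, with 12.8 ± 1.9 CPM per kb, and overlapped *Klf7* (16 ± 4.3) and *Klf3* (12.2 ± 1.58). In dual-treated lungs the leading order was again *Klf2* (152 ± 9.15, n = 2), *Klf4* (62.7 ± 0.975) and *Klf6* (41.6 ± 3.88), with no overlap between neighbours. Among all tested genes the mean level per kb over the 8 mice put *Klf2* at percentile 99.2, *Klf6* at 97.6 and *Klf4* at 97.2, and *Klf3*, the lowest, at 79.6. The exon length used is the union over all transcripts, so a gene with long or many isoforms has a lower level per kb than its main transcript would give.

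*Klf2*, *Klf4*, *Klf6* and *Klf7* belong to the branch of the family known mainly as activators. *Klf2* (ENSMUSG00000055148, GRCm39 chromosome 8, 73072726 to 73075502, plus strand) is the flow-responsive factor of quiescent endothelium and is also expressed in resting lymphocytes. It was measured at 247, 235 and 262 CPM in control mice 1, 2 and 4, at 588, 537 and 464 CPM in LPS mice 1, 6 and 7, and at 311 and 338 CPM in dual-treated mice 2 and 5. The 3 groups did not overlap, and the dual-treated mice lay between the control and the LPS mice. With LPS *Klf2* rose 2.14-fold (log2 fold change 1.10, SE 0.116, adjusted p = 2.96e-05 by edgeR). It fell with dual treatment against LPS (log2 fold change -0.71, SE 0.131, adjusted p = 0.00137; -0.38 with library size only, adjusted p = 0.0119). The difference between dual-treated and control lungs was 0.39 (SE 0.128, adjusted p = 0.0692), and also 0.39 without LPS mice 6 and 7. It passed the threshold with DESeq2 (0.37, adjusted p = 0.026) and with library size as the only scaling (0.43, adjusted p = 0.0218). It also passed with only the compared groups (0.40, adjusted p = 0.0259) and without LPS mouse 1 or 7 in the fit (adjusted p = 0.0454 and 0.0331). It missed the threshold without LPS mouse 6 (adjusted p = 0.0841). The same held with no filter on low counts (0.0785) and with at least 10 counts in every library (0.0524). It did not pass with relative log expression scaling (adjusted p = 0.0772), without dual-treated mouse 2 or 5 (0.42 and 0.30, adjusted p = 0.157 and 0.235) or without control mouse 1, 2 or 4 (adjusted p = 0.167, 0.215 and 0.128).

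In bulk tissue, fewer cells of a type and less RNA per cell cannot be told apart. With LPS, and with dual treatment against LPS, *Klf2* moved against most but not all markers of the endothelium. Of 7 endothelial markers, 5 fell with LPS (*Pecam1*, *Kdr*, *Tie1*, *Emcn* and *Ptprb*), and *Cdh5* and *Cldn5* were not called. With dual treatment 5 of the 7 rose against LPS, where 31.7% of all genes rose. Against control, where 9.13% of all genes rose and 7.02% fell, 1 of the 7 markers rose and 2 fell. Their sum was 3617, 3881 and 4081 CPM in control mice, 2242, 1854 and 1814 CPM in LPS mice and 3070 and 3429 CPM in dual-treated mice. The highest of them was *Ptprb* in control, *Cdh5* in LPS and *Pecam1* in dual-treated mice, and none was at 0. *Cdh5* was at 590, 659 and 737 CPM in control mice, 938, 657 and 642 CPM in LPS mice and 510 and 590 CPM in dual-treated mice, with overlap between control and LPS. It had the direction of *Klf2* with LPS (log2 fold change 0.17, adjusted p = 0.382 by edgeR). Against LPS it also had that direction (-0.44, adjusted p = 0.0691), with every dual-treated mouse below every LPS mouse. *Pecam1* was the marker that rose against control (0.60, adjusted p = 0.0143), the direction of *Klf2*. The part of the endothelial markers in the *Klf2* result was not tested.

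*Klf4* (ENSMUSG00000003032, chromosome 4, 55527139 to 55532528, minus strand) is an endothelial partner of *Klf2* and also a differentiation factor of squamous epithelia. Its values were 192, 205 and 196 CPM in control mice, 271, 189 and 234 CPM in LPS mice and 200 and 195 CPM in dual-treated mice. LPS mouse 6 was the lowest and LPS mouse 1 the highest of all 8 mice, so LPS overlapped both other groups. The log2 fold change with LPS was 0.23 (SE 0.129, adjusted p = 0.145), and it was -0.07 with library size as the only scaling. Without LPS mouse 1 it was 0.11 (adjusted p = 0.44) and without LPS mouse 6 it was 0.36 (adjusted p = 0.0175), so the call turned on LPS mouse 6. Without LPS mice 6 and 7, with only LPS mouse 1 in its group, it was 0.46. Against control, the dual-treated mice had a log2 fold change of -0.002 with an approximate 95% interval from -0.33 to 0.32, and its sign changed with the scaling. Against LPS the value was -0.23 (SE 0.145, adjusted p = 0.198), and it was 0.10 with library size only. It was -0.11 without LPS mouse 1 (adjusted p = 0.491), -0.36 without LPS mouse 6 (adjusted p = 0.0295) and -0.46 without LPS mice 6 and 7. The LPS mouse with the highest *Klf4* level was the one whose squamous markers summed to 1.13 CPM. The part of squamous cells in the *Klf4* values was not tested.

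*Klf6* (ENSMUSG00000000078, chromosome 13, 5911481 to 5920393, plus strand) is an early gene of tissue injury that is widely expressed, in endothelium and in myeloid cells among others. Its levels were 213, 170 and 174 CPM in control mice, 743, 464 and 527 CPM in LPS mice and 198 and 174 CPM in dual-treated mice. Every LPS mouse was above every other mouse, and the control and dual-treated mice shared 1 range. *Klf6* had the largest rise of the 9 genes, 3.11-fold (log2 fold change 1.64, SE 0.182, adjusted p = 3.87e-05). It fell by the same size with dual treatment against LPS (log2 fold change -1.64, SE 0.21, adjusted p = 0.000159). Between dual-treated and control lungs the log2 fold change was 0.0032, with an approximate 95% interval from -0.44 to 0.45, and its sign differed with DESeq2 (-0.014). This interval leaves room for changes of either direction that are smaller than the LPS response.

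The neutrophil markers differed in their response to dual treatment. Against LPS *Ly6g* fell (log2 fold change -2.75, adjusted p = 0.00732), *Retnlg* rose (1.49, adjusted p = 0.00579), and *S100a8* and *S100a9* were not called (adjusted p = 0.81 and 0.126). Against control 3 of the 4 rose with dual treatment, and *Ly6g* was not called (2.42, adjusted p = 0.0622). All 4 neutrophil markers rose with LPS, and their sum, led by *S100a9*, was 175, 94 and 98.7 CPM in control mice, 2042, 2833 and 1773 CPM in LPS mice and 1564 and 2148 CPM in dual-treated mice. The LPS and dual-treated mice overlapped in this sum. The 4 macrophage markers, with *Mertk* highest in control and *Marco* in the other mice, summed to 166, 130 and 151 CPM in control mice, 130, 137 and 85.2 CPM in LPS mice and 340 and 330 CPM in dual-treated mice. With LPS *Mertk* fell (log2 fold change -1.72, adjusted p = 1.59e-06) and the other macrophage markers were not called. Against control 3 rose with dual treatment and *Mertk* fell (-0.46, adjusted p = 0.0242). With dual treatment against LPS all 4 rose (*Adgre1*, *Cd68*, *Marco* and *Mertk*), and no marker of either list was at 0. Their part in the changes of the Klf genes was not tested.

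*Klf7* (ENSMUSG00000025959, chromosome 1, 64068606 to 64161508, minus strand) is known from neurons and from adipocyte differentiation. The values were 109, 97.8 and 94.6 CPM in control mice, 176, 104 and 127 CPM in LPS mice and 74.6 and 69.2 CPM in dual-treated mice. LPS mouse 6 was within the control range, and both dual-treated mice were below all other mice. The rise with LPS was small and passed the threshold narrowly (log2 fold change 0.44, SE 0.169, adjusted p = 0.0434). Its size depended on LPS mouse 1: the value was 0.21 without this mouse (adjusted p = 0.136) and 0.60 without LPS mouse 6 (adjusted p = 0.00641). Without LPS mice 6 and 7, with only LPS mouse 1 in its group, it was 0.81. Without control mouse 1, 2 or 4 the value kept about its size (0.49, 0.41 and 0.39) and missed the threshold (adjusted p = 0.0584, 0.109 and 0.108). With library size only it was 0.14 (adjusted p = 0.434). The fall with dual treatment against LPS was larger (log2 fold change -0.92, SE 0.194, adjusted p = 0.00288; -0.58 with library size only, adjusted p = 0.0128). Against control the dual-treated mice had a value of -0.48 (SE 0.191, adjusted p = 0.12), and also -0.48 without LPS mice 6 and 7. This value passed with LPS mouse 1 left out (adjusted p = 0.0234) and with no filter on low counts (adjusted p = 0.0374). It also passed with only the control and dual-treated libraries in the fit (adjusted p = 0.0149). It did not pass with DESeq2 (adjusted p = 0.0602), with library size only (0.103) or without LPS mouse 6 or 7 (0.0606 and 0.117).

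*Klf5*, an activator of epithelial cells that is outside the list of 9, had the same directions as *Klf7*. It was at 35.8, 26.8 and 30.3 CPM in control mice, 43.5, 43.6 and 51.5 CPM in LPS mice and 20.9 and 22.6 CPM in dual-treated mice, with no overlap between groups. Its log2 fold change was 0.58 with LPS (adjusted p = 0.00286, and 0.0978 with library size only), -0.51 with dual treatment against control (adjusted p = 0.0419, and 0.0879 with library size only) and -1.09 against LPS (adjusted p = 0.000218). *Klf1*, the erythroid activator, had at most 0.516 CPM and was not tested. Of the 5 activators tested, 4 rose with LPS, the exception being *Klf4*, beside 32.6% of all genes, and 4 fell with dual treatment against LPS, beside 27.4%.

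*Klf3* (ENSMUSG00000029178, chromosome 5, 64959875 to 64990261, plus strand) recruits the corepressor CtBP and restrains genes that activating family members switch on. Control mice 1, 2 and 4 had 144, 155 and 159 CPM, LPS mice 1, 6 and 7 had 171, 168 and 210 CPM, and dual-treated mice 2 and 5 had 135 and 130 CPM. The 3 groups did not overlap, with the LPS mice highest and the dual-treated mice lowest. With LPS the log2 fold change was 0.26 (SE 0.109, adjusted p = 0.0581). This value passed the threshold with DESeq2 (0.30, adjusted p = 0.0223), without LPS mouse 1 (0.31, adjusted p = 0.0426) and without LPS mouse 6 (0.33, adjusted p = 0.0377), and was -0.018 with library size only. It was smaller without LPS mouse 7 (0.16, adjusted p = 0.149) and without LPS mice 6 and 7 (0.17). *Klf3* fell with dual treatment against LPS (log2 fold change -0.47, SE 0.124, adjusted p = 0.0094), but not with library size only (-0.15, adjusted p = 0.401). Against control the dual-treated value was -0.21 (SE 0.123, adjusted p = 0.296). An antisense gene, *Gm20033*, covers 643 bases or 4.29% of its exons, and since the strand setting of the counting is not given in the sources used here, their reads cannot be told apart there.

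The other CtBP binders, *Klf8* and *Klf12*, both fell with LPS and were far less abundant. Of the 3 CtBP binders 0 rose and 2 fell with LPS, beside 32.6% and 33.9% of all genes. *Klf8* was at 3.72, 3.66 and 2.62 CPM in control mice, 1.48, 2.08 and 1.9 CPM in LPS mice and 2.77 and 2.37 CPM in dual-treated mice (log2 fold change with LPS -0.87, adjusted p = 0.0155). *Klf12* was at 4.7, 7.18 and 9.15 CPM in control mice, 2.31, 2.77 and 2.51 CPM in LPS mice and 2.18 and 4.57 CPM in dual-treated mice (log2 fold change with LPS -1.47, adjusted p = 0.00339). In both genes all LPS mice were below all control mice. With dual treatment neither was called by edgeR against control (adjusted p = 0.426 for *Klf8* and 0.0829 for *Klf12*) or against LPS (0.172 and 0.359). Among the 5 tested Klf genes outside the list of 9, DESeq2 called 3 lower against control and edgeR called 1, *Klf5*. The shares of all genes were 10.4% and 7.02%. With library size only, 2 of these 5 were higher against LPS, beside 42.5% of all genes, and 1 in the main fit, beside 31.7%.

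*Klf9*, *Klf10* and *Klf13* carry a motif that binds the corepressor Sin3A. *Klf9* (ENSMUSG00000033863, chromosome 19, 23118187 to 23148497, plus strand) is a direct target of the glucocorticoid and thyroid hormone receptors. Its transcripts were at 208, 169 and 186 CPM in control mice, 430, 428 and 439 CPM in LPS mice and 172 and 132 CPM in dual-treated mice. The LPS mice were nearly equal and all above the other 5 mice, and the dual-treated mice overlapped the control mice at the lower end. *Klf9* rose 2.31-fold with LPS (log2 fold change 1.21, SE 0.126, adjusted p = 2.69e-05). Its fall with dual treatment against LPS was 2.85-fold (log2 fold change -1.51, SE 0.147, adjusted p = 3.44e-05). The dual-treated value against control was -0.31 (SE 0.14, adjusted p = 0.177), -0.54 without dual-treated mouse 2 (adjusted p = 0.072) and -0.16 without dual-treated mouse 5 (adjusted p = 0.531). The antisense gene *Gm56648* covers 333 bases or 4.05% of the exons of *Klf9*.

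*Klf13* (ENSMUSG00000052040, chromosome 7, 63536099 to 63588663, minus strand) is known in T cells as a factor for the late expression of *Ccl5*. Its levels were 167, 148 and 157 CPM in control mice, 393, 356 and 325 CPM in LPS mice and 192 and 185 CPM in dual-treated mice. The 3 groups did not overlap, and as for *Klf2* the dual-treated mice lay slightly above the control mice. With LPS *Klf13* rose 2.27-fold (log2 fold change 1.18, SE 0.105, adjusted p = 1e-05). It fell 1.9-fold with dual treatment against LPS (log2 fold change -0.93, SE 0.119, adjusted p = 0.000162; -0.59 with library size only, adjusted p = 0.000737). Against control the dual-treated value was 0.26 (SE 0.115, adjusted p = 0.164). *Ccl5*, a chemokine of activated lymphocytes, was at 13.2, 8.49 and 12.4 CPM in control mice, 299, 199 and 185 CPM in LPS mice and 24.9 and 26.5 CPM in dual-treated mice. It rose with LPS (log2 fold change 4.32, adjusted p = 8.76e-07) and with dual treatment (1.18, adjusted p = 0.00959), and was lower with dual treatment than with LPS alone (-3.15, adjusted p = 1.36e-05).

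*Klf10* (ENSMUSG00000037465, chromosome 15, 38291703 to 38300959, minus strand), also called TGF-beta inducible early gene, went the other way. The counts gave 94.5, 91.8 and 105 CPM in control mice, 45.5, 54 and 61.4 CPM in LPS mice and 61.3 and 72.9 CPM in dual-treated mice. All 5 mice given LPS were below all control mice, and dual-treated mouse 2 lay just below LPS mouse 7. *Klf10* fell 1.81-fold with LPS (log2 fold change -0.86, SE 0.125, adjusted p = 0.000233), the only fall among the 9 genes by edgeR and by DESeq2. It was also lower with dual treatment against control (log2 fold change -0.53, SE 0.14, adjusted p = 0.0313). That call was lost without dual-treated mouse 2 (-0.44, adjusted p = 0.207), without control mouse 1, 2 or 4, where the value kept about its size (-0.55, -0.57 and -0.50, adjusted p = 0.0714, 0.0664 and 0.0983), and with library size only (-0.49, adjusted p = 0.0773). Against LPS the dual-treated value was 0.32 (SE 0.139, adjusted p = 0.0697), and it was 0.55 without LPS mice 6 and 7. It passed without LPS mouse 7 (0.42, adjusted p = 0.0233) and with library size only (0.64, adjusted p = 0.00778). The same value was 0.17 without dual-treated mouse 5 (adjusted p = 0.462) and 0.21 without LPS mouse 1 (adjusted p = 0.191). The antisense gene *Gm35248* covers 62 bases or 1.48% of its exons, and *Gm13748* covers 7 bases of those of *Klf7*.

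*Klf11* and *Klf16*, the other Sin3 binders that were tested, parted in the same way as *Klf13* and *Klf10*. *Klf11*, a close relative of *Klf10* and likewise an early TGF-beta gene, was at 28.2, 24.7 and 26.3 CPM in control mice, 71.1, 63.4 and 70.1 CPM in LPS mice and 33.7 and 33.3 CPM in dual-treated mice. It rose with LPS (log2 fold change 1.37, SE 0.0935, adjusted p = 2.48e-06) and fell with dual treatment against LPS (-1.03, adjusted p = 4.74e-05), and its value against control was 0.34 (adjusted p = 0.0504). *Klf16* was at 19.2, 19.8 and 18 CPM in control mice, 9.49, 9.24 and 9.66 CPM in LPS mice and 11.4 and 15.6 CPM in dual-treated mice. It fell with LPS (log2 fold change -1.01, SE 0.145, adjusted p = 0.000212) and rose with dual treatment against LPS (0.51, adjusted p = 0.0203). Its value against control was -0.49 (adjusted p = 0.0668). With library size only, 1 of the 5 tested Klf genes outside the list of 9 was higher against control and 0 were lower. The shares of all genes were then 9.78% and 5.55%. With DESeq2, 0 were higher and 3 lower, beside 10.3% and 10.4%. Of the 5 Sin3 binders tested, 3 rose and 2 fell with LPS, beside 32.6% and 33.9% of all genes. *Klf14* and *Klf17* had at most 4 raw counts in any library and were not tested.

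*Klf15* (ENSMUSG00000030087, chromosome 6, 90438998 to 90452220, plus strand) is a glucocorticoid target that drives amino acid breakdown in muscle and liver. It was measured at 105, 105 and 93.2 CPM in control mice, 134, 136 and 131 CPM in LPS mice and 91.1 and 64.8 CPM in dual-treated mice. All LPS mice were above, and both dual-treated mice below, the control mice. *Klf15* rose 1.32-fold with LPS (log2 fold change 0.40, SE 0.125, adjusted p = 0.0174). Without LPS mice 6 and 7 the value was 0.41. It then rests on LPS mouse 1 alone, so it does not show that the call holds without these mice. Of the other fits, the call was lost without control mouse 4 (0.35, adjusted p = 0.0713) and with library size only (0.12, adjusted p = 0.471). It fell with dual treatment against LPS (log2 fold change -0.78, SE 0.143, adjusted p = 0.00135; -0.45 with library size only, adjusted p = 0.028). Against control the value was -0.37 (SE 0.142, adjusted p = 0.105), and it was -0.67 without dual-treated mouse 2 (adjusted p = 0.0157) and -0.18 without dual-treated mouse 5 (adjusted p = 0.383). *Klf15* was as high in LPS mouse 1, whose skeletal muscle markers summed to 15.9 CPM, as in LPS mice 6 and 7. The part of skeletal muscle in the *Klf15* values was not tested. The 3 smooth muscle markers, with *Acta2* highest in all mice but control mouse 4 (*Myh11*), summed to 151, 194 and 168 CPM in control mice, 186, 220 and 238 CPM in LPS mice and 115 and 138 CPM in dual-treated mice. *Acta2* rose with LPS, all 3 fell with dual treatment against LPS, none was at 0, and their part in the *Klf15* result was not tested.

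**Figure D2:**
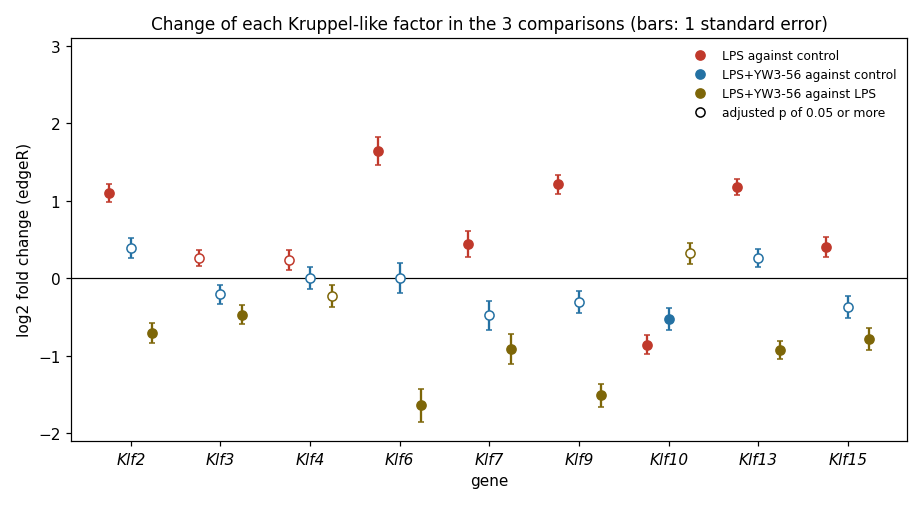
Log2 fold change from edgeR (vertical axis) of each Klf gene (horizontal axis) in the 3 comparisons; bars are 1 standard error and open points have an adjusted p of 0.05 or more. With LPS (red) 6 genes rose and *Klf10* fell, with dual treatment against control (blue) only *Klf10* passed, and with dual treatment against LPS (brown) 7 genes fell; with library size as the only scaling the points of *Klf3* (LPS against control) and *Klf4* (all 3 comparisons) changed sign.

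The sister family of the Klf genes, the Sp factors, binds similar GC boxes. Of 9 Sp genes 5 were tested, and with LPS 4 rose and 1 fell, while with dual treatment against LPS 4 fell and 0 rose by edgeR, also at an unadjusted p under 0.05 and by DESeq2. For these 5, the marker lists above and the lists below, the shares of all genes called higher and lower were 32.6% and 33.9% with LPS. They were 31.7% and 27.4% with dual treatment against LPS, and 9.13% and 7.02% against control. With library size only, the shares in these 3 comparisons were 23.4% and 42.2%, 42.5% and 17.4%, and 9.78% and 5.55%. With DESeq2 they were 33.7% and 32.7%, 29.6% and 29.3%, and 10.3% and 10.4%. List counts under another setting are to be read beside the shares of that setting. With relative log expression scaling the shares with LPS were 33.8% and 32.8%. The rises were smaller than those of the leading Klf genes. *Sp2* was at 22, 23.8 and 22.7 CPM in control mice, 47.7, 36.8 and 39.9 CPM in LPS mice and 20.1 and 25.8 CPM in dual-treated mice (log2 fold change with LPS 0.86, adjusted p = 0.000338). *Sp3* and *Sp4* had log2 fold changes of 0.47 (adjusted p = 0.000593) and 0.57 (adjusted p = 0.0165). *Sp5*, a developmental Wnt target at 7.03 CPM or less, fell with LPS (-1.70, adjusted p = 0.00339). With library size as the only scaling only *Sp2* rose with LPS, and 3 fell with dual treatment against LPS. Against control, 0 of the 5 were called with dual treatment by edgeR, 1 was lower at an unadjusted p under 0.05, and DESeq2 called 1 lower.

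Among 9 genes of corepressors and coactivators that Klf proteins recruit, 2 rose and 4 fell with LPS, and 5 rose and 2 fell with dual treatment against LPS. With library size only these counts were 1 and 6 with LPS and 5 and 1 with dual treatment against LPS, and with DESeq2 they were 3 and 4, and 4 and 2. *Ctbp2*, the corepressor partner of *Klf3*, was at 46.5, 50.4 and 48.6 CPM in control mice, 19.5, 14 and 21.9 CPM in LPS mice and 42.7 and 48.3 CPM in dual-treated mice. It fell with LPS (log2 fold change -1.39, adjusted p = 3.81e-05) and rose with dual treatment against LPS (1.30, adjusted p = 0.00016). *Hdac2*, a histone deacetylase of the Sin3 complex, fell with LPS (-1.30, adjusted p = 9.72e-06) and rose with dual treatment against LPS (0.93, adjusted p = 0.000202). Of the acetyltransferases, *Kat2b* fell (-0.79, adjusted p = 5.37e-05) and *Crebbp* rose with LPS (0.67, adjusted p = 0.000215). *Sin3a* itself was between 60.6 and 71.5 CPM in all 8 mice, with a log2 fold change of -0.014 with LPS (adjusted p = 0.882) that changed sign with DESeq2, and was named after its values were seen. Against control, dual treatment lowered 1 gene, *Kat2b* (-0.43, adjusted p = 0.0218), by edgeR, with 4 lower at an unadjusted p under 0.05 and 3 lower by DESeq2. It raised 0 by edgeR at either threshold and by DESeq2.

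The pathway upstream of *Klf2* and *Klf4* moved in both directions. Of 11 genes of the MEK5, ERK5 and MEF2 cascade and of the CCM complex that restrains it, 6 rose and 3 fell with LPS, beside 32.6% and 33.9% of all genes. With library size only, 2 rose and 3 fell. *Mef2d*, a MEF2 factor, was at 123, 121 and 126 CPM in control mice, 297, 250 and 285 CPM in LPS mice and 137 and 131 CPM in dual-treated mice. It had the same course as *Klf2*, rising with LPS (log2 fold change 1.17, adjusted p = 7.02e-06) and falling with dual treatment against LPS (-1.05, adjusted p = 5.29e-05). The CCM genes *Ccm2* and *Pdcd10* moved apart. *Ccm2* was at 50.7, 50.4 and 48.5 CPM in control mice, 20.1, 18.6 and 16.4 CPM in LPS mice and 49.9 and 56.5 CPM in dual-treated mice (log2 fold change with LPS -1.44, adjusted p = 3.63e-06). *Pdcd10* rose (1.09, adjusted p = 3.45e-05), and *Heg1*, the endothelial receptor that anchors the complex, fell (-0.52, adjusted p = 0.00152). Dual treatment against LPS gave 2 higher and 5 lower of the 11 (3 and 2 with library size only), beside 31.7% and 27.4% of all genes, and against control 1 fell and 0 rose by edgeR, at an unadjusted p under 0.05 and by DESeq2, the fall being lost with library size only. The list's median changed sign with library size only, from 0.22 to -0.06 with LPS and from -0.10 to 0.24 with dual treatment against LPS.

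Endothelial genes that *Klf2* or *Klf4* are known to raise did not move as 1 group with LPS. Of 6 listed 5 were tested, and 1 rose and 2 fell with LPS (1 and 3 with library size only). *Thbd*, the anticoagulant receptor thrombomodulin, was at 529, 654 and 611 CPM in control mice, 152, 96 and 116 CPM in LPS mice and 324 and 557 CPM in dual-treated mice. It fell with LPS (log2 fold change -2.30, adjusted p = 2.07e-05) and every LPS mouse was below every control mouse, while *Klf2* rose. *Tek*, the angiopoietin receptor, fell further (-3.28, adjusted p = 3.2e-06). *S1pr1*, the receptor for sphingosine 1-phosphate, rose (1.06, adjusted p = 0.00124), with 624, 546 and 499 CPM in LPS mice against 271, 259 and 269 CPM in control mice. *Nos3* had a log2 fold change of 0.21 (adjusted p = 0.354) and *Aqp1* of -0.20 (adjusted p = 0.375), both named after their values were seen, and *Nppc* was not tested. *Thbd* and *Tek* rose and *S1pr1* fell with dual treatment against LPS, while with library size only 4 of the 5 rose and the fall was lost. Against control 0 were called by edgeR in either direction, 1 was higher and 1 lower at an unadjusted p under 0.05, and DESeq2 called 0 higher and 1 lower.

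Endothelial genes that *Klf2* or *Klf4* are known to lower were all higher with LPS, alongside *Klf2*. All 5 given here rose and 0 fell by edgeR, at an unadjusted p under 0.05 and by DESeq2, and their median log2 fold change was 1.83, against -0.01 over all genes. *Vcam1*, a leukocyte adhesion receptor, was at 44.6, 50.4 and 41.1 CPM in control mice, 288, 140 and 156 CPM in LPS mice and 79.4 and 70.2 CPM in dual-treated mice (log2 fold change with LPS 2.10, adjusted p = 6.08e-05). *F3*, tissue factor, rose by 1.83 (adjusted p = 3.72e-05), and *Edn1*, the vasoconstrictor endothelin, also by 1.83 (adjusted p = 0.000351). In *Sele*, the selectin of activated endothelium, the dual-treated mice were far apart. It was at 38.1 CPM in dual-treated mouse 2 and 2.46 CPM in mouse 5, against 18.5, 14.1 and 14.5 CPM in LPS mice and at most 1.13 CPM in control mice. *Sele* rose with LPS (log2 fold change 3.97, adjusted p = 0.00196) and was also higher with dual treatment against control (4.34, adjusted p = 0.00939). Against control 1 of the 5 rose and 1 fell with dual treatment by edgeR, and DESeq2 called 3 higher and 1 lower. Dual treatment against LPS lowered 4 of the 5 and raised 0, by edgeR at either threshold and by DESeq2, and with library size only it lowered 3.

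The lymphocyte trafficking genes *S1pr1* and *Ccr7*, both linked to *Klf2*, rose with LPS and fell with dual treatment against LPS, although the fall of *S1pr1* (log2 fold change -0.78, adjusted p = 0.0155) was lost with library size only (-0.45, adjusted p = 0.103). *Ccr7*, the receptor that guides lymphocytes and dendritic cells to lymph nodes, was at 84.7, 58.3 and 68.4 CPM in LPS mice and at 12.3 and 3.03 CPM in dual-treated mice, the latter being below the control mice (4.26, 4.46 and 4.55 CPM). Its log2 fold change was 3.99 with LPS (adjusted p = 2.47e-05) and -3.20 with dual treatment against LPS (adjusted p = 0.000308). T cell markers were low throughout: 4 of them, with *Cd3d* highest in the mean over the 8 mice, summed to 11.3, 7.23 and 7.54 CPM in control mice, 10.9, 9.82 and 5.19 CPM in LPS mice and 4.04 and 4.87 CPM in dual-treated mice. The 4 B cell markers, with *Cd79b* highest in all mice but dual-treated mouse 2 (*Cd79a*), summed to 35.9, 40.8 and 38.5 CPM in control mice, 24.4, 24 and 16.6 CPM in LPS mice and 70.4 and 24.7 CPM in dual-treated mice. With LPS 1 T cell marker rose and 1 fell, and 2 B cell markers fell. In the comparison of dual treatment with LPS, 2 T cell markers fell (*Cd3d* by 1.29, adjusted p = 0.034, and *Trac* by 1.78, adjusted p = 0.0029, on the log2 scale) and 2 B cell markers rose (*Cd79a* and *Ms4a1*). None was at 0, and the part of these cells in the result was not tested.

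Glucocorticoid-induced genes, the group to which *Klf9* and *Klf15* belong, were higher with LPS. Of 7 such genes and the receptor gene *Nr3c1*, 7 of 8 rose and 0 fell by edgeR, at an unadjusted p under 0.05 and by DESeq2, with a median of 2.16. With library size only, 5 rose and 1 fell. *Per1*, a clock gene, was at 112, 66.2 and 62.5 CPM in control mice, 1132, 833 and 955 CPM in LPS mice and 203 and 133 CPM in dual-treated mice. It rose with LPS (log2 fold change 3.60, adjusted p = 3.92e-06) and fell with dual treatment against LPS (-2.53, adjusted p = 0.000102). *Mt2*, a metallothionein, rose from at most 0.422 CPM to 34.4, 32 and 34.6 CPM (6.71, adjusted p = 1.08e-06). The phosphatase gene *Dusp1* rose by 2.56 (adjusted p = 1.14e-05) and the kinase gene *Sgk1* by 2.53 (adjusted p = 2.69e-06). With dual treatment against LPS 5 of the 8 fell by edgeR, 6 were lower at an unadjusted p under 0.05 and 7 by DESeq2, and 0 rose by edgeR at either threshold or by DESeq2. Against control 3 rose and 1 fell, while with library size only 4 rose and the fall was lost. The genes that rose in the main fit with dual treatment were *Mt2* (3.12, adjusted p = 0.00152), *Per1* (1.07, adjusted p = 0.0263) and *Fkbp5* (1.53, adjusted p = 0.00263), the last named after its values were seen. *Klf9* and *Klf15* were not among those higher with dual treatment than in control.

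Genes of amino acid breakdown linked to *Klf15* fell with LPS or were not called in the main fit. Of 6, 3 fell with LPS and 0 rose by edgeR and by DESeq2, with 1 higher at an unadjusted p under 0.05, and 4 fell with library size only. With relative log expression scaling 3 fell and 1 rose, *Bckdhb* (0.35, adjusted p = 0.046), which was named after its values were seen and had 0.31 in the main fit (adjusted p = 0.0698), with every LPS mouse above every control mouse. *Bcat2*, a transaminase of branched-chain amino acids, was at 50.1, 51.9 and 50.3 CPM in control mice, 16.8, 17.6 and 19 CPM in LPS mice and 54.7 and 53.3 CPM in dual-treated mice. It fell with LPS (log2 fold change -1.51, adjusted p = 1.37e-06) and was higher with dual treatment than with LPS (1.60, adjusted p = 4.45e-06), the reverse of *Klf15*. The alanine transaminases *Gpt* and *Gpt2* fell by 2.02 (adjusted p = 4.23e-05) and 0.56 (adjusted p = 0.0233) on the log2 scale. With dual treatment against LPS 3 rose and 1 fell, *Gpt2* being lost among the rises with DESeq2 (0.49, adjusted p = 0.0606), while with library size only 5 rose and the fall was lost. The list's median then went from 0.38 to 0.70. Against control 0 of the 6 were called in either direction by edgeR or DESeq2, and 1 was higher and 1 lower at an unadjusted p under 0.05.

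Around *Klf10*, all 8 genes of TGF-beta signalling were called with LPS, 5 higher and 3 lower, beside 32.6% and 33.9% of all genes. *Smad7*, the inhibitory Smad that TGF-beta induces, was at 118, 120 and 125 CPM in control mice, 40.6, 31 and 33 CPM in LPS mice and 56.6 and 73.3 CPM in dual-treated mice. Like *Klf10* it was lower in all 5 mice given LPS than in control mice. Its log2 fold change was -1.79 with LPS (adjusted p = 3.59e-06) and -0.89 with dual treatment against control (adjusted p = 0.00362). *Skil*, a corepressor of the Smads, rose (1.09, adjusted p = 0.000299), as did the receptor gene *Tgfbr2* (1.04, adjusted p = 1.25e-05) and the signal transducer *Smad2* (0.58, adjusted p = 0.000802). Of the 8, 2 rose and 5 fell with dual treatment against LPS, and 1 rose and 2 fell against control. With library size only, 3 rose and 3 fell with LPS, and likewise 3 and 3 with dual treatment against LPS. The 4 fibroblast markers, with *Pdgfra* highest in all mice but LPS mouse 7 (*Dcn*), summed to 855, 885 and 814 CPM in control mice, 680, 866 and 799 CPM in LPS mice and 970 and 688 CPM in dual-treated mice, with 1 higher and 1 lower with LPS, 2 higher with dual treatment against LPS and none at 0.

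Markers of other lung cells also differed between groups. The 4 erythroid markers, led by *Hbb-bs*, summed to 1700, 3823 and 2729 CPM in control mice, 3203, 1840 and 1431 CPM in LPS mice and only 415 and 371 CPM in dual-treated mice, and all 4 fell with dual treatment against both other groups. The dual-treated mice were thus below every other mouse in globin transcripts. Alveolar type 2 markers, led by *Sftpc*, summed to 34746, 28836 and 36289 CPM in control mice, 25190, 17385 and 13910 CPM in LPS mice and 16804 and 27754 CPM in dual-treated mice, with 3 of 4 lower with LPS. Alveolar type 1 markers, led by *Ager*, summed to 3348, 3110 and 3221 CPM, 3261, 2763 and 1837 CPM, and 1594 and 2129 CPM in the same order of groups, with 1 of 4 higher and 1 lower with LPS, 2 lower with dual treatment against control, and 1 higher and 2 lower against LPS. The NK cell markers, led by *Nkg7*, summed to 16.7 CPM in dual-treated mouse 5 and to between 3.57 and 8.37 CPM in the other mice, and 1 of 3 was lower with LPS and 2 were higher with dual treatment against LPS (*Ncr1* by 4.11 and *Klrb1c* by 1.37 on the log2 scale). None of these markers was at 0, and their part in the Klf results was not tested.

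For each Klf gene the genes most alike in log2 CPM over the 8 mice were taken from 12153 genes with a mean of at least 5 CPM. The 8 points share their libraries and fall into 3 groups, so Pearson's r describes these mice only. For *Klf2* these were *Ebag9* (r = 0.997) and *Cdyl* (0.995), for *Klf6* *Wdr5* and *Mief1* (both 0.997) and for *Klf9* *Bclaf1* (0.998) and *Rprd2* (0.997). *Klf13* was most like *Atp6v1h* (0.998) and *Ykt6* (0.997), and *Klf10*, the gene that fell, was most like *Agap3* (0.994) and *Ahsa2* (0.989). For each of the remaining members the highest r was below the highest r of each of these. *Klf3* was nearest to *Eno4* (0.990) and *Clca1* (0.984), *Klf15* to *H6pd* and *Ccl17* (both 0.980) and *Klf7* to *Cflar* (0.974) and *Celf1* (0.970). *Klf4*, which was not called in any comparison, had the lowest values, with *Pelo* (0.947) and *Cpsf1* (0.918).

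Promoters were examined because 7 of the genes fell together with dual treatment against LPS. RefSeq's promoter table, made on GRCm38.p6, held 8 of the 9 members, all but *Klf10*. In and around its own gene in GRCm39, the 250 bases before each gene start matched at exactly 1 place. The rest of the genome was not searched. Motifs were searched on both strands in these windows and in those of 32851 promoters. The E-box CACGTG, bound by clock and Myc factors, was in 3 of 8 members and in 6.02% of all promoters. The GC box GGGCGG was in 7 of 8 members (all but *Klf9*) and in 32.7% of all promoters, and CACCC, whose matches can overlap a GC box, was in 6 of 8 and in 52%. The CRE TGACGTCA (1.55% of all promoters), the NF-kB core GGGACTTTC (0.289%) and the MEF2 core TATTTATA (1.56%) were in 0 of 8 windows. The longer MEF2 consensus, searched only after the sequences had been seen, was in 1 of 8, *Klf2*, and in 2.92% of all promoters. The windows of the 8 members were 59.2% to 78.4% GC, and the shares over all promoters were not matched for GC content. The 8 include *Klf4*, which was not among the 7 genes that fell. These matches describe the letters and do not show that a factor binds there.

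The first stretch is shown for the MEF2 match of the flow-responsive gene *Klf2*, with the match in capitals. It starts 118 bases before the RefSeq gene start and lies at chr8:73072778-73072807 on the plus strand of GRCm39, inside the gene bounds that GENCODE gives.
Klf2: tataccgcggCTAAATTTAGgctgagcccg

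The E-box matches follow, with CACGTG in capitals, because they set *Klf4*, *Klf6* and *Klf15* apart from the other members searched. That of *Klf4* lies at chr4:55532640-55532669 (minus strand), starting 182 bases before the RefSeq gene start. That of *Klf6* lies at chr13:5911433-5911462 (plus strand), 43 bases before it. *Klf15*, the only member searched with more than 1, holds them at chr6:90439318-90439347 and chr6:90439374-90439403 (plus strand), starting 228 and 172 bases before the RefSeq gene start. Both of these lie inside the bounds that GENCODE gives for *Klf15*, while those of *Klf4* and *Klf6* lie upstream of the GENCODE bounds.
Klf4: cgcccccgccccCACGTGcgcggagtttgt
Klf6: ctccaagctggtCACGTGgggggagaaggg
Klf15, first: ctcccgaggtccCACGTGgtctgcacttcg
Klf15, second: tagaacccgtctCACGTGcgcatcggagga

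The upstream windows of *Klf6* and *Klf13* are given because they lie almost wholly upstream of the gene start in GENCODE. They are printed up to that start, with GC boxes on either strand and the E-box in capitals. *Klf2* and *Klf9* also rose more than 2-fold with LPS. The searched window of *Klf2* held 2 GC boxes and no E-box, and that of *Klf9* held neither. The printed windows lie at chr13:5911238-5911480 (plus strand, 243 bases) and chr7:63588664-63588913 (minus strand, 250 bases) of GRCm39. *Klf6* has 1 GC box and 1 E-box in this stretch, and *Klf13* has 3 GC boxes and 0 E-boxes.
Klf13: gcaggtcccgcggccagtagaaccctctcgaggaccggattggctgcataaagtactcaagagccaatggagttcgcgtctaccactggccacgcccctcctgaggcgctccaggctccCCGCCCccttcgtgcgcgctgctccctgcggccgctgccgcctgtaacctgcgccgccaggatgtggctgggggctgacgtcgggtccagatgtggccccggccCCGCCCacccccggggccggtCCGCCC
Klf6: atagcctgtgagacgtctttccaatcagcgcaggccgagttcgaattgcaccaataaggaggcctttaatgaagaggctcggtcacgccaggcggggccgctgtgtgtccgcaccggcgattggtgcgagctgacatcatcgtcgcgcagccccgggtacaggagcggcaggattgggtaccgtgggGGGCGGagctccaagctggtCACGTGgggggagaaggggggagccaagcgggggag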

How the data were processed

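RNA-seq counts were analysed for 8 mouse lungs. The authors checked and trimmed reads with FastQC 0.11.9 and Trim Galore, aligned them to GRCm39 with HISAT2 2.2.1, counted them per gene with featureCounts 2.0.1 and deposited raw counts. Symbols, positions and exon lengths came from GENCODE's annotation of GRCm39, which matched 54749 of 55416 identifiers. In R 4.3.3, edgeR 4.0.16 (TMM scaling, filterByExpr by group, quasi-likelihood test) was fitted once to all 8 libraries, leaving 5 residual degrees of freedom. p-values were Benjamini-Hochberg adjusted over 18560 genes, and SEs and approximate intervals were derived from the F statistic. Libraries were checked to be distinct, and the fit was tested on simulated data. Alternatives were DESeq2 1.42.0, other scalings and filters, the compared groups only, the study's criterion and left-out mice. By rule, named genes were the 9 members, the other tested Klf genes, and of each list up to 4 called genes with the largest log2 fold change with LPS; marker genes, untested genes, antisense genes, genes alike in pattern and a few genes marked as named after their values were seen came in addition. The members and lists were chosen with earlier results of these data known. Protein sequences were not analysed here. Some listed genes are not reported here, and their lists are counted without them.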

Additional observations from a re-analysis of the deposited data

How the results depend on the processing

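Over the 9 genes and 3 comparisons, 356 values kept their direction and their side of the threshold under an alternative, 23 newly passed it, 14 no longer passed it and 12 changed sign, the last all among values that were not called. With the study's criterion the members called were 4, 0 and 2 (against 7, 1 and 7) for LPS against control, dual treatment against control and dual treatment against LPS, and the genes called were 7450, 1944 and 6554 (against 12346, 2997 and 10960). For dual treatment against control, DESeq2 called 1 member higher and 1 lower, beside 10.3% and 10.4% of all genes. With no filter on low counts 0 were higher and 2 lower, beside 6.15% and 4.82%. With only the compared groups in the fit 1 was higher and 2 lower, beside 11.9% and 9.87%. Leaving out each mouse in turn gave 0 to 3 members and 1220 to 3601 genes in that comparison. With library size only, log2 fold changes with LPS were -0.018 for *Klf3* and -0.07 for *Klf4*, and those of *Klf4* with dual treatment were 0.038 against control and 0.10 against LPS. *Klf4* against control was 0.0041 with at least 10 counts in every library, 0.012 with only the compared groups, and -0.048 to 0.024 with each mouse left out. *Klf6* against control was -0.014 with DESeq2 and with relative log expression scaling, and -0.13 to 0.11 with each mouse left out. The cause was not tested. With a dual-treated mouse left out, or LPS mice 6 and 7, the remaining mouse of that group is assumed to vary like the other groups. Exact permutation tests of 3 mice against 3 cannot go below p = 0.1, so calls rest on the fit across genes. No paired analysis was possible because the groups share at most 1 mouse number.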
